A study of Homo sapiens with 7 samples.

Results

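The genes described here build, load and regulate the MHC proteins and their relatives that show peptides, lipids and metabolites at the cell surface. They are a list of 40 genes chosen by function, drawn up with earlier results of these data known. The list holds the class I chains with their peptide supply and the class II chains with their endosomal processing. It also holds the regulators of both and the class I-like molecules. Of the 40 genes, 26 had a transcript cluster (the array's unit for 1 gene) that carried their symbol alone, and these are counted below beside all 14232 genes with such a cluster. A further 9 genes were named only on clusters shared with another gene and 5 on no cluster, so these 14 have no value of their own.

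Expression was measured in CSC, the CD44+CD24- cells sorted from the DU145 line and grown as spheroids (4 arrays), and in bulk parental DU145 cells (3 arrays), on Human Exon 1.0 ST arrays. DU145 is an androgen-independent prostate carcinoma line from a brain metastasis, and the labels give no treatment for either group. By the methods in the study's paper the CSC spheroids floated in serum-free medium with EGF, bFGF and insulin and were pooled for RNA, whereas DU145 cells grew attached in medium with serum. The sample labels instead give 1 medium with serum for both groups and mention the sort but no spheroids, so the sources differ on whether serum was absent from CSC. Where the paper's account holds, sorting, serum, growth factors and attachment differ together and cannot be told apart. All the cells come from 1 line. Values are Robust Multichip Average (RMA) levels on the log2 scale, and every log2 fold change is CSC minus DU145. A gene was called when its limma p, adjusted by Benjamini-Hochberg over all 22011 clusters, was at most 0.05 and its absolute log2 fold change at least 1.

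MHC class I molecules carry peptides cut by the proteasome, pumped into the endoplasmic reticulum by TAP and loaded there onto a heavy chain paired with B2M, and nearly all nucleated cells show them to cytotoxic T cells. MHC class II molecules are assembled with the invariant chain CD74, which blocks their groove until endosomal proteases digest it, and they are typical of professional antigen-presenting cells, although interferon gamma can induce them in epithelial cells. Loss of class I presentation is a common route by which carcinomas escape T cells.

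The correlation between arrays over all clusters was 0.967 to 0.975 within CSC, 0.977 to 0.983 within DU145 and 0.951 to 0.962 between the groups. The median log2 fold change of all genes was 0.10, with a 5th to 95th percentile range of -0.37 to 0.70. The sorting marker CD44 had 8.25, 7.60, 8.07 and 7.09 in CSC, against 8.79, 8.62 and 9.39 in DU145, a log2 fold change of -1.18 (SE 0.33, limma adjusted p = 0.128). Every CSC array thus lay below every DU145 array for CD44 RNA. The CD44+ label rests on surface protein at the sort, which these RNA values do not measure. By quantitative PCR the paper reports similar CD44 RNA in spheroids and DU145 cells, and significantly lower CD24. CD24 had a log2 fold change of -0.40 (SE 0.27, limma adjusted p = 0.449), with overlapping groups. Of 6 measured epithelial markers, 2 were called, both higher in CSC: CDH1 (E-cadherin) with a log2 fold change of 3.32 and EPCAM with 1.92. As a scale for dim genes, the means over all arrays of 220 olfactory receptor genes were centred on 3.25, and 95% of them were at or under 4.92, and 20 of the 26 genes had a mean above 4.92, against 72.6% of all genes.

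Of the 26 genes, 1 was called, CD74, and it was higher in CSC, where 1.43% of all genes were called in either direction, 1.0% higher and 0.422% lower. Without the fold limit 3 genes passed, CD74, B2M and CTSS, all higher in CSC, against 1.57% of all genes in that direction. With the fold limit and the unadjusted p, 4 genes passed higher in CSC, CD74, IFI30, MR1 and TAP1, against 2.24% of all genes in that direction. Every CSC array lay above every DU145 array in 8 of the 26 (30.8%), against 12.7% of all genes, and the reverse was seen in 0 of the 26, against 3.77%. The mean was higher in CSC in 21 of the 26, where 72.0% of all genes also had the higher mean in CSC, and the median log2 fold change was 0.34. Since the arrays measure whole RNA, a change in the share of cells that express a gene and in RNA per cell cannot be told apart.

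**Figure D1:**
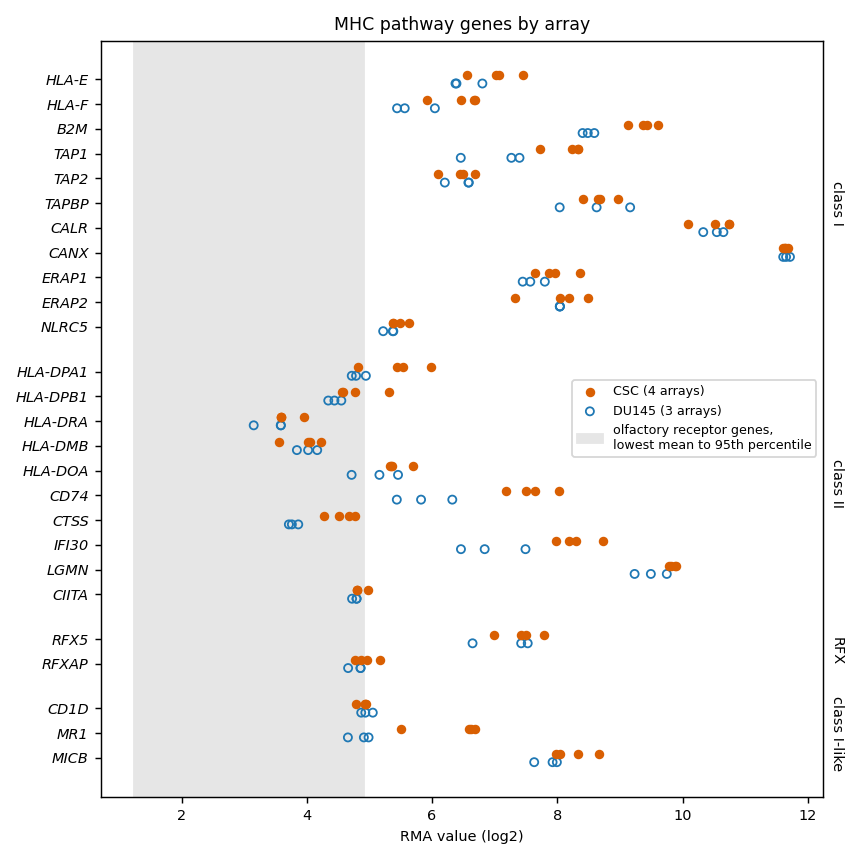
RMA value (log2, x axis) of each of the 26 genes (rows) on the 4 CSC arrays (filled points) and the 3 DU145 arrays (open points), with the olfactory receptor range shaded up to its 95th percentile of 4.92. CD74, IFI30, B2M, TAP1 and MR1 show CSC points to the right of all DU145 points, and several class II genes lie inside the shaded range.

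**Figure D2:**
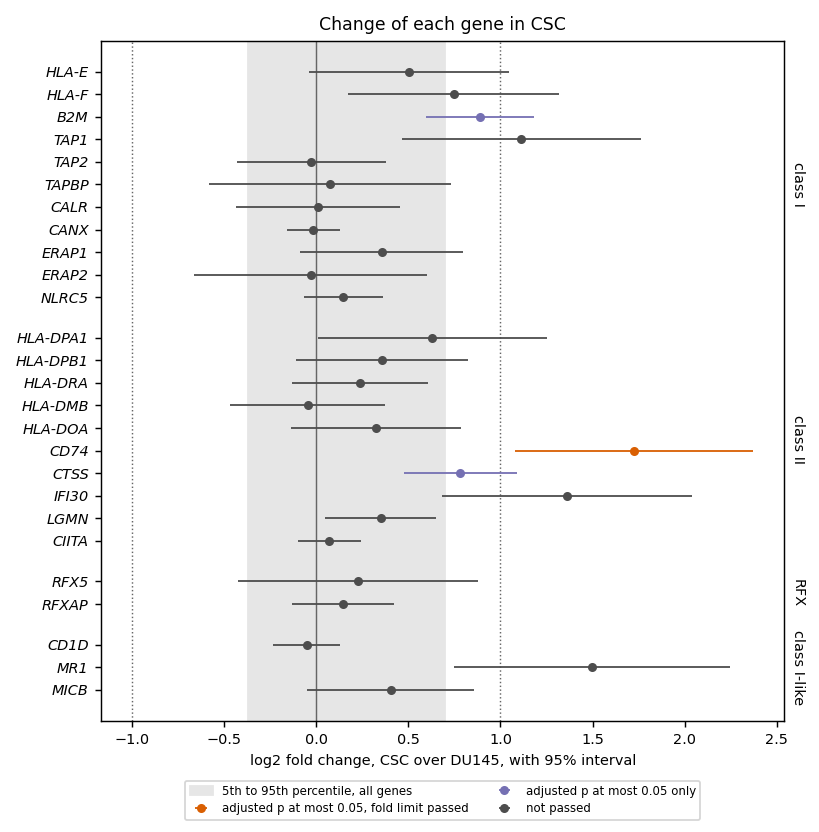
Log2 fold change of CSC over DU145 (x axis, point) with its 95% interval (line) for each gene (rows), with the middle range of all genes shaded and the fold limit of 1 dotted. Only CD74 passed both limits, and B2M and CTSS passed the adjusted p alone.

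Promoter sequence was read for the genes on which these results turn, since MHC promoters carry known elements: the interferon-stimulated response element (ISRE) bound by IRF factors, the X2 and Y boxes bound by CREB and NF-Y, and the κB site. The RefSeq promoter table (GRCh38.p14, 250 bases before to 50 after each start) held 33 of the 40 genes and 20 of the 26 measured ones. The 2 genes with the largest class II changes are shown with the class I genes B2M and TAP1, whose groups separated, and TAPBP, whose groups overlapped. Capitals mark matches to the ISRE core (GAAA, any 2 bases, GAAA), the Y box ATTGG, the X2 core TGACG and the κB site, on either strand, with overlapping matches run together.
CD74 (chr5:150412861-150413160, minus strand): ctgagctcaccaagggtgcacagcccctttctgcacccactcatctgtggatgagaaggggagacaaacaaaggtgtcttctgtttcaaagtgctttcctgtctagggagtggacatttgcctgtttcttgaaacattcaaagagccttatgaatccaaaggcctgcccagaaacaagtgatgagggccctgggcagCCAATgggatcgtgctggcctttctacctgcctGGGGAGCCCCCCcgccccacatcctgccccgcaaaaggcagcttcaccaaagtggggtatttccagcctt
IFI30 (chr19:18173563-18173862, plus strand): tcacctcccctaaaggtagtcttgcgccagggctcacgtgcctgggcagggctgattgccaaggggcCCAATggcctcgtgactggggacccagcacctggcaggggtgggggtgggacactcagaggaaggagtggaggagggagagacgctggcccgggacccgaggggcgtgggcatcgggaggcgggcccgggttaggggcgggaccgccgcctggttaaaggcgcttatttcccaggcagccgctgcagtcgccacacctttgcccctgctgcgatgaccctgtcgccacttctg
B2M (chr15:44711267-44711566, plus strand): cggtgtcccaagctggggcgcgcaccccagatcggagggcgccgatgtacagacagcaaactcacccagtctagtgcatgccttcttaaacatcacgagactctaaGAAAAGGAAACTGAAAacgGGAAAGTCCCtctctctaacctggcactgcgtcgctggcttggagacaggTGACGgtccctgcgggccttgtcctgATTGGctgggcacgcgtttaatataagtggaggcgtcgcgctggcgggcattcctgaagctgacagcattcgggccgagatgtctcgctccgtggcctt
TAP1 (chr6:32853655-32853954, minus strand): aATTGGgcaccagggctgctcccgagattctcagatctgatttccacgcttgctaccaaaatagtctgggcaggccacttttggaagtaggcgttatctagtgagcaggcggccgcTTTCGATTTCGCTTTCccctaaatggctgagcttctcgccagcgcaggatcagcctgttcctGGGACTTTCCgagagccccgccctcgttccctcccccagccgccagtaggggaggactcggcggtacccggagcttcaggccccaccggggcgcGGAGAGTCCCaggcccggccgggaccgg
TAPBP (chr6:33314029-33314328, minus strand): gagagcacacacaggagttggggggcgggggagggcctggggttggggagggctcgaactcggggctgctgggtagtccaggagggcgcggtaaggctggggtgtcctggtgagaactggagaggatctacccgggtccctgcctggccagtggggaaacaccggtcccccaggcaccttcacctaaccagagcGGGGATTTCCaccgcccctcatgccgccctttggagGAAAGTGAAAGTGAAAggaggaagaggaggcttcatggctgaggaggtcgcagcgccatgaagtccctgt

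The CD74 window held a Y box at -53 to -49 from the start and overlapping κB matches at -20 to -9, and the IFI30 window held only a Y box at -183 to -179. Neither held an ISRE core in these windows. B2M held 2 overlapping ISRE cores between -144 and -129, a κB match at -125 to -116, an X2 core at -75 to -71 and a Y box at -49 to -45. TAP1 held 2 overlapping ISRE cores between -134 and -119 in the window shown, and TAPBP held 2 between -20 and -5. TAP2 held 1 at -58 to -49.

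The largest change was that of CD74, the invariant chain of class II, which also serves as a receptor for the cytokine MIF. CD74 had 7.18, 7.64, 8.03 and 7.50 in CSC, against 5.44, 5.82 and 6.32 in DU145. The groups did not overlap, and the lowest CSC array stood above the highest DU145 array. CD74 averaged 7.59 ± 0.35 in CSC and 5.86 ± 0.44 in DU145 (SD, n = 4 and 3), and its log2 fold change was 1.73 (SE 0.27, 95% interval 1.08 to 2.37, limma adjusted p = 0.0367), or 3.31-fold. Of all genes, 0.646% had a log2 fold change at or above it. With each array left out in turn the log2 fold change ran between 1.51 and 1.96, but the adjusted p ran between 0.0461 and 0.131, and CD74 was called in 1 of the 7 fits, the one without CSC array 1.

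IFI30, also known as GILT, is the lysosomal thiol reductase that opens disulfide bonds of antigens for class II loading. It had 8.30, 8.18, 8.72 and 7.97 in CSC, against 6.46, 6.84 and 7.49 in DU145. All CSC arrays were above all DU145 arrays. The log2 fold change was 1.36 (SE 0.28, 95% interval 0.68 to 2.04, limma adjusted p = 0.0682), so IFI30 was not called.

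CTSS, the cathepsin that makes the last cuts in the invariant chain, had 4.67, 4.52, 4.78 and 4.28 in CSC, against 3.71, 3.86 and 3.76 in DU145. The groups did not overlap, and the log2 fold change was 0.78 (SE 0.13, limma adjusted p = 0.0408), under the fold limit. With each array left out in turn the adjusted p ran between 0.0292 and 0.129 and was under 0.05 only without CSC array 4. Both group means lay below the 95th percentile of the olfactory receptor genes. LGMN, the asparaginyl endopeptidase that starts the digestion of some antigens and of the invariant chain, was far brighter than that range, with 9.88, 9.90, 9.81 and 9.78 in CSC and 9.49, 9.23 and 9.75 in DU145. Its groups did not overlap either, with a log2 fold change of 0.35 (SE 0.12, limma adjusted p = 0.203). In all 4 genes of the invariant chain and endosomal processing group, every CSC array was above every DU145 array, against 12.7% of all genes, and their median log2 fold change was 1.07. Of the 3 other endosomal cathepsins measured, 0 had every CSC array above every DU145 array.

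The class II chains themselves were dim. HLA-DPA1, the alpha chain of HLA-DP, had 4.82, 5.45, 5.53 and 5.98 in CSC and 4.94, 4.72 and 4.79 in DU145, and CSC array 1 lay among the DU145 values. Its log2 fold change was 0.63 (SE 0.26, limma adjusted p = 0.250). HLA-DPB1, its partner beta chain, had 4.57, 4.57, 5.31 and 4.77 in CSC and 4.34, 4.44 and 4.55 in DU145, and its groups were separated by a narrow margin (log2 fold change 0.36, limma adjusted p = 0.357). HLA-DRA, the alpha chain of HLA-DR, was at 3.59 on 5 of the 7 arrays, with 3.96 on CSC array 2 and 3.15 on DU145 array 3. These levels lie near the median of the olfactory receptor genes.

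Of 4 listed peptide exchange factors, 2 had a cluster of their own, and neither these nor the class II transactivator gave a separation. HLA-DMB, a chain of the HLA-DM editor of class II peptides, had a log2 fold change of -0.05 (95% interval -0.47 to 0.37), and HLA-DOA, a chain of the HLA-DO modulator of HLA-DM, had 0.32 (95% interval -0.14 to 0.78). CIITA, the master regulator of class II transcription, had 4.80, 4.97, 4.80 and 4.80 in CSC, against 4.80, 4.80 and 4.72 in DU145. Its log2 fold change was 0.07 (95% interval -0.10 to 0.24), and its level lay inside the olfactory receptor range in both groups. HLA-DPB1, HLA-DRA, HLA-DMB, CTSS and CIITA are the 5 of 10 class II genes with a mean at or below the 95th percentile of that range.

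Among the class I genes, B2M, the light chain that pairs with the class I heavy chains and with CD1D and MR1, had the smallest adjusted p. B2M had 9.13, 9.60, 9.43 and 9.36 in CSC, against 8.59, 8.49 and 8.40 in DU145. The groups lay well apart. The log2 fold change was 0.89 (SE 0.12, 95% interval 0.60 to 1.18, limma adjusted p = 0.0272), or 1.85-fold, which did not reach the fold limit. With each array left out in turn the adjusted p ran between 0.0197 and 0.107 and was under 0.05 only without CSC array 1.

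TAP1, a subunit of the peptide pump, had 7.72, 8.33, 8.24 and 8.33 in CSC, against 6.46, 7.40 and 7.27 in DU145. The groups did not overlap, and CSC array 1 was the lowest of its group. The log2 fold change was 1.11 (SE 0.27, 95% interval 0.46 to 1.76, limma adjusted p = 0.0982). TAP2, the other subunit, had 6.09, 6.49, 6.69 and 6.45 in CSC and 6.20, 6.58 and 6.59 in DU145. The TAP2 groups overlapped throughout, with a log2 fold change of -0.03 (95% interval -0.43 to 0.38), an interval that lies below the value of TAP1. Both TAP genes hold an ISRE core in the windows described above. The difference between TAP1 and TAP2 was not tested.

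The heavy chains measured alone, HLA-F and HLA-E, had intermediate values. The classical heavy chains HLA-B and HLA-C share a cluster, which had a log2 fold change of 0.88 (limma adjusted p = 0.0332), with every CSC array above every DU145 array. HLA-F, a class I heavy chain with limited surface display, had 5.91, 6.68, 6.67 and 6.46 in CSC and 5.44, 6.05 and 5.56 in DU145, with CSC array 1 inside the DU145 range (log2 fold change 0.75, limma adjusted p = 0.168). HLA-E, which presents leader peptides to the NKG2A receptor of NK cells, had 6.56, 7.02, 7.46 and 7.07 in CSC and 6.37, 6.39 and 6.80 in DU145 (log2 fold change 0.50, limma adjusted p = 0.281). CSC array 1 again lay within the DU145 range. The 95% intervals were 0.17 to 1.32 for HLA-F and -0.04 to 1.05 for HLA-E, so both contain the 0.89 of B2M.

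The chaperones and the tapasin bridge of the loading complex were bright and overlapped between the groups. CANX, the membrane chaperone calnexin, had a log2 fold change of -0.02 with a 95% interval of only -0.16 to 0.13. CALR, the chaperone calreticulin of the loading complex, had 0.01 (95% interval -0.44 to 0.45). TAPBP, the tapasin bridge between TAP and class I, had 0.07 (95% interval -0.59 to 0.73). A log2 change of 1 lies outside the 95% limits of all 3. ERAP1 and ERAP2, aminopeptidases that trim peptides to length, had log2 fold changes of 0.35 (limma adjusted p = 0.340) and -0.03 (95% interval -0.67 to 0.60). NLRC5, the class I transactivator, had 5.38, 5.49, 5.63 and 5.38 in CSC and 5.38, 5.22 and 5.37 in DU145 (log2 fold change 0.15, limma adjusted p = 0.405).

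Of the 11 class I genes 0 were called, against 1.43% of all genes, and 2 (18.2%) had every CSC array above every DU145 array, B2M and TAP1, against 12.7%. The class I median log2 fold change was 0.15, with a range of -0.03 to 1.11. HLA-B and HLA-C, which share a cluster, are not among the 11. Of the 10 class II genes 1 was called and 5 (50%) had every CSC array above, with a median of 0.35 and a range of -0.05 to 1.73. When the limma p was left unadjusted and no fold limit was set, 3 of the 11 class I genes and 5 of the 10 class II genes passed 0.05, against 19.1% of all genes. Whether the class I and class II genes differ was not tested.

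The shared RFX factors bind the X box of both classes of promoter. RFX5 had 7.0, 7.42, 7.50 and 7.78 in CSC and 6.65, 7.42 and 7.53 in DU145, overlapping, with a log2 fold change of 0.23 (95% interval -0.43 to 0.88). RFXAP, its partner, had 0.15 (95% interval -0.13 to 0.42).

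MR1, which presents vitamin B metabolites of microbes to MAIT cells, had the largest log2 fold change after CD74. It had 5.50, 6.59, 6.69 and 6.63 in CSC, against 4.91, 4.66 and 4.99 in DU145. The groups did not overlap, though CSC array 1 was closer to the DU145 arrays than to the other CSC arrays, and the DU145 values lie at the edge of the olfactory receptor range. The log2 fold change was 1.5 (SE 0.31, 95% interval 0.75 to 2.25, limma adjusted p = 0.069). Without CSC array 1 it was 1.78 and MR1 was called, with a limma adjusted p of 0.00557. CD1D, which presents lipids to NKT cells, had -0.05 (95% interval -0.24 to 0.13), and MICB, a stress-induced ligand of the NKG2D receptor, had 0.40 (95% interval -0.05 to 0.86).

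A low position of array 1 recurred across the genes in both groups. CSC array 1 alone was the lowest CSC array in 14 of the 26 genes (53.8%), against 24.5% of all genes, and in 8 of the 11 class I genes. DU145 array 1 was likewise alone lowest of its group in 14 of the 26 genes (53.8%), against 39.2% of all genes, and in 8 of the 11 class I genes. Relative to the DU145 mean, the class I genes averaged 0.03, 0.43, 0.50 and 0.40 on CSC arrays 1 to 4, against -0.18, 0.06 and 0.12 on the DU145 arrays. The class II genes averaged 0.47, 0.59, 0.73 and 0.52 on the CSC arrays, against -0.07, 0.03 and 0.04 on the DU145 arrays. The class I average of CSC array 1 thus lay within the DU145 arrays, whereas its class II average did not. All genes averaged 0.10, 0.14, 0.14 and 0.14 on the CSC arrays, against -0.05, -0.01 and 0.06 on the DU145 arrays, where CSC array 1 was lower than the other CSC arrays by far less.

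**Figure D3:**
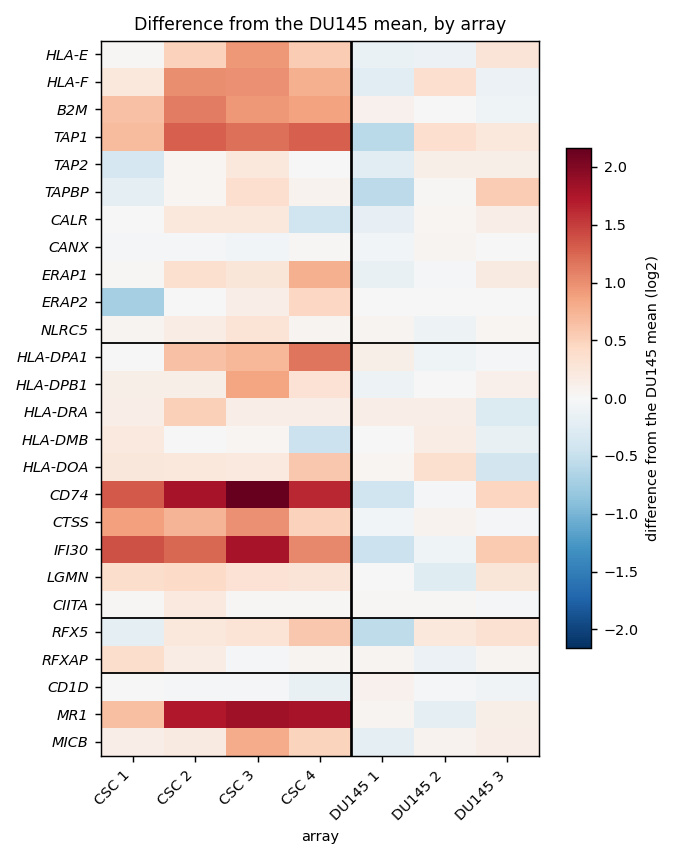
Difference of each value from the DU145 mean of its gene (colour, log2), with genes in rows and the 4 CSC arrays left of the 3 DU145 arrays. CD74, IFI30, TAP1 and MR1 are red on every CSC array, and CSC array 1 is paler than the other CSC arrays in most class I rows.

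**Figure D4:**
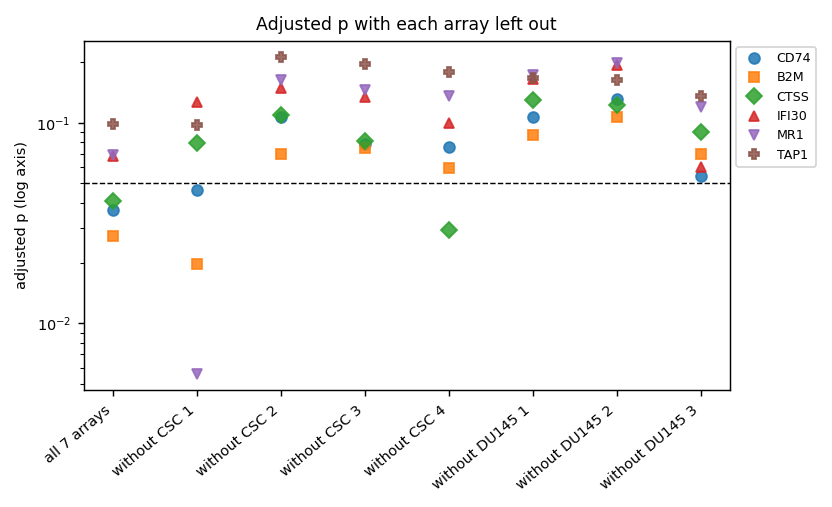
Limma adjusted p (y axis, log scale) of 6 genes in the fit of all 7 arrays and in each fit with 1 array left out (x axis), with the limit of 0.05 dashed. CD74, B2M and CTSS lie under the limit with all arrays and above it in 6 of the 7 other fits each, and MR1 drops to 0.00557 without CSC array 1.

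Other genes of the pathway were read in the same fit. Of the immunoproteasome and PA28 genes 4 of 5 were measured and 0 were called, with a median log2 fold change of 0.44. PSMB8, a catalytic subunit of the immunoproteasome whose gene lies between TAP2 and TAP1 in the class II region, had 6.90, 8.13, 8.22 and 7.84 in CSC, against 5.71, 6.46 and 6.63 in DU145. Its groups did not overlap, and its log2 fold change was 1.51 (SE 0.38, limma adjusted p = 0.107). CSC array 1 was again the lowest of its group.

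The 3 constitutive proteasome counterparts had a median log2 fold change of -0.09, with 0 called. Of the interferon signalling genes 10 of 13 were measured, 0 were called and the median was 0.02, below the median of 0.10 of all genes. IRF1, an interferon-induced activator of class I promoters, had 6.29, 6.16, 6.52 and 5.97 in CSC and 5.01, 5.97 and 5.74 in DU145 (log2 fold change 0.66, limma adjusted p = 0.222). The lowest CSC array and the highest DU145 array shared a value. Other endosomal cathepsins (3 of 6 measured) had a median of 0.24, other CD1 proteins (4 of 4) 0.17 and other folding helpers of the endoplasmic reticulum (5 of 7) -0.03, with 0 called in each. At the unadjusted limma p of 0.05, without a fold limit, 19.1% of all genes passed. So did 2 of 4 immunoproteasome and PA28 genes, 1 of 3 constitutive counterparts, 1 of 10 interferon signalling genes and 1 of 3 cathepsins. Of the CD1 proteins and of the folding helpers 0 passed.

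Of the other NKG2D ligands 2 of 5 were measured and 0 were called. ULBP1 had 7.03, 6.92, 7.56 and 7.63 in CSC, against 5.33, 4.89 and 6.21 in DU145. The groups did not overlap, and its log2 fold change of 1.81 (SE 0.35, limma adjusted p = 0.0586) was above that of CD74, with a larger error. RAET1E had 0.76 (SE 0.30, limma adjusted p = 0.242).

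Because class II genes are typical of leukocytes, leukocyte markers were read beside them. Of 15 measured markers 0 were called, 4 (26.7%) had every CSC array above every DU145 array, against 12.7% of all genes, and the median log2 fold change was 0.22. Their mean level was 4.69 to 4.88 on the CSC arrays, against 4.46 to 4.58 on the DU145 arrays, without overlap between groups. The average of all genes, relative to the DU145 mean, did not overlap either. It was 0.10 to 0.14 on the CSC arrays and -0.05 to 0.06 on the DU145 arrays. PTPRC (CD45), which defines leukocytes, was at 2.25 to 2.31 in CSC and 2.08 to 2.25 in DU145, below the median of the olfactory receptor genes. LYZ (lysozyme) had 2.79, 3.73, 5.60 and 4.61 in CSC, against 2.64, 2.55 and 2.77 in DU145 (log2 fold change 1.53, limma adjusted p = 0.252). The other separated markers, named after their values were seen, were the lysosomal macrophage protein CD68 and the monocyte markers CSF1R and CD14. CD68 had 9.10, 9.56, 9.88 and 8.95 in CSC, against 8.52, 8.09 and 8.79 in DU145 (log2 fold change 0.91, limma adjusted p = 0.154). CSF1R had a log2 fold change of 0.45 (limma adjusted p = 0.185) and CD14 of 0.31 (limma adjusted p = 0.0985). The part of these markers in the class II values was not tested.

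The printed elements were then set against the changes over the whole list. An ISRE core was found in 16.0% of the windows of the listed genes, against 3.57% of all 35114 windows in the table, and in 8 genes, B2M, ERAP1, ERAP2, HLA-F, RFX5, TAP1, TAP2 and TAPBP. The log2 fold changes of these 8 ran from -0.03 to 1.11 with a median of 0.29, whereas the 12 measured genes in the table without a match ran from -0.05 to 1.73 with a median of 0.34. No test was made of these groups. The median was 0.36 in the 15 measured genes with a Y box and 0.07 in the 5 without, 0.63 in the 7 with a κB match and 0.23 in the 13 without, and 0.19 in the 8 with an X2 core and 0.38 in the 12 without. Y boxes were in 56% of the windows against 34.6% of all, X2 cores in 32.0% against 24.6% and κB matches in 22.0% against 11.3%. A match is a description of the letters, and binding was not measured.

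**Figure D5:**
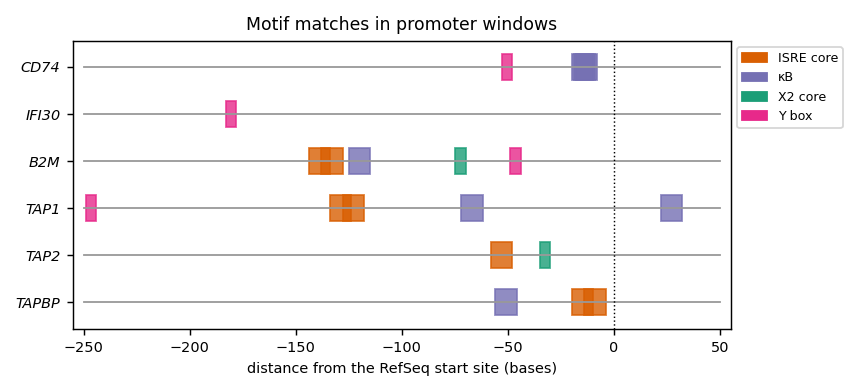
Positions of ISRE core, κB, X2 core and Y box matches (coloured boxes) in the RefSeq promoter windows of 6 genes (rows), by distance from the start site in bases (x axis). TAP1 and TAPBP, with log2 fold changes of 1.11 and 0.07, both hold overlapping ISRE cores, and CD74 and IFI30 hold none.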

How the data were processed

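The authors summarised scanner files of Human Exon 1.0 ST arrays to gene level with oneChannelGUI by RMA with quantile-sketch normalization, and the deposited log2 values, 1 for each of 22011 transcript clusters on 7 arrays, were used as given. The genome build is not given in the sources used here. Clusters were named through the platform's probe table, and clusters carrying more than 1 symbol named no gene. A gene with several clusters of its own was read from the brightest.

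The 4 CSC and 3 DU145 arrays, grouped by their labels, entered a limma 3.58.1 model (R 4.3.3) whose only term was condition. On simulated data with known changes, it called 66% of log2 changes of 1.5 and 88% of those of 2.5. A gene that was not called can thus still have changed. Tests were two-sided, and adjusted p-values are from limma with Benjamini-Hochberg over all clusters. The study's methods give 3 replicates per condition, and nothing states that the arrays are separate cultures. The p-values thus reflect only the spread between these arrays, which may be technical. The number of arrays limits the precision. Over all clusters, same-numbered arrays of the groups had deviations that correlated at 0.07, -0.01 and 0.05. The replicate numbers were therefore not treated as pairs. Whether same-numbered arrays share an effect on the listed genes was not tested.

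Every listed gene with its own cluster is named, and of each other list up to 4 called genes and 2 more. The genes, lists and tests were chosen with earlier results of these data known. Alternatives were other scaling, a filter on dim clusters, other moderation and weights, other thresholds, the t-test that the methods name for other measurements, a replicate block, other test families and each array left out. Promoter sequences are from RefSeq. Tables and figures were made with Python 3.11.15, pandas 2.3.3 and matplotlib 3.10.9.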

Additional observations from a re-analysis of the deposited data

Results flagged for a closer look

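In groups of 4 arrays, a single array that stands far from the rest is expected by chance in about 1 in 20 groups. Of 39 genes looked at, 7 had such a CSC array. That rate holds for values without ties, so the count cannot be set against it. The other CSC arrays shared an identical value in HLA-DRA and PTPRC, where any deviation is flagged, and some of them did in CIITA and CD1D. In TAP1, CSC array 1 was at 7.72, while the other CSC arrays were at 8.24 to 8.33. In MR1, CSC array 1 was at 5.50, while the others were at 6.59 to 6.69. In HLA-DRA, CSC array 2 was at 3.96 with the others at 3.59, and in CIITA, CSC array 2 was at 4.97 with the others at 4.80. CSC array 4 was at 5.70 in HLA-DOA, against 5.33 to 5.36 on the other CSC arrays, and at 4.79 in CD1D, against 4.93 to 4.94. In the leukocyte marker PTPRC, CSC array 1 was at 2.31 and the others at 2.25. The HLA-DRA and PTPRC values lie under 4.92, the 95th percentile of the olfactory receptor genes, as does the CD1D value.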

How the results depend on the processing

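The fit called 286 of all clusters, 159 higher and 127 lower in CSC, and 1 of the 26 genes, CD74, a class II gene. Median centring called 413 clusters (192 higher and 221 lower) and gave a class I median of 0.071, against 0.15. With a further quantile normalization 430 clusters were called (201 higher and 229 lower), 2 of the 26 genes (IFI30 besides CD74) and 2 class II genes. With array weights 495 were called, with 3 of the 26 genes (IFI30 and MR1 besides CD74) and 2 class II genes. Tested over clusters brighter than the median, which makes for fewer tests, 3 of the 26 genes passed, TAP1 as 1 of class I and CD74 and IFI30 as 2 of class II, and the class II median became 1.36, now over 3 genes, CD74, IFI30 and LGMN. At the unadjusted p with the fold limit 957 clusters passed, with 4 of the 26 genes (1 of class I, 2 of class II), and at the adjusted p without a fold limit 450 clusters passed, with 3 of the 26 genes (1 of class I, 2 of class II). The t-test that the methods name for measurements other than the arrays called 43 clusters and 0 of the 26 genes. The replicate block called 0 clusters and 0 of the 26 genes, with CD74 at 1.76 and a limma adjusted p of 0.0814. CSC array 4 has no DU145 partner in that block, so it adds nothing to the difference and fewer arrays carry the estimate. The SE was smaller with the block in most of the 26 genes, as in CD74 with 0.079, against 0.27 without it. It was larger in the others, as in B2M with 0.16, against 0.12. The numbers were not shown to pair the arrays. With 1 array left out, 56 to 279 clusters were called, 0 to 2 of the 26 genes and 0 to 1 class II genes, and the class I median ran from 0.094 to 0.35. The highest came without DU145 array 3. CD74 was called in 1 of these 7 fits. Counts fell to 56 without DU145 array 1, 59 without DU145 array 2, 86 without CSC array 2, 129 without DU145 array 3 and 136 without CSC array 3.

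The sign of genes near 0 turned under some settings. Median centring gave TAPBP -0.0032, CALR -0.067 and CIITA -0.0053, and quantile normalization gave TAPBP -0.012, CALR -0.013 and CANX 0.029. Array weights gave ERAP2 0.0077, and the replicate block gave HLA-DMB 0.089. With an array left out the ranges were -0.21 to 0.35 for TAPBP, -0.082 to 0.15 for CALR, -0.042 to 0.011 for CANX, -0.19 to 0.20 for ERAP2, -0.14 to 0.089 for HLA-DMB, -0.15 to 0.086 for TAP2 and -0.051 to 0.39 for RFX5. The cause of these changes was not tested. Among single genes, 391 values kept direction and call, 11 gained the call, 8 lost it and 21 turned sign. The mean over a gene's clusters was not run, since no gene on the list had more than 1. HLA-DPB1 and HLA-DRA were no brighter than the olfactory receptor range, which limits what their values show.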

Other observations

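Clusters shared by listed genes cannot be split between them, so their values belong to the cluster and not to a gene. The cluster of HLA-B and HLA-C, classical class I heavy chains, had 11.49, 11.78, 12.04 and 11.82 in CSC, against 10.85, 10.96 and 10.88 in DU145. All CSC arrays were above all DU145 arrays, and the log2 fold change was 0.88 (SE 0.13, limma adjusted p = 0.0332), under the fold limit of 1. The cluster of HLA-DOB and TAP2 averaged 5.02 ± 0.36 in CSC and 4.43 ± 0.20 in DU145 (SD, n = 4 and 3), a log2 fold change of 0.59 (SE 0.21, limma adjusted p = 0.209). Its groups were separated by a narrow margin, from 4.65 on the lowest CSC array to 4.57 on the highest DU145 array. The cluster of HLA-DMA and HLA-DMB averaged 6.01 ± 0.23 in CSC and 5.57 ± 0.29 in DU145, a log2 fold change of 0.44 (SE 0.18, limma adjusted p = 0.252), with overlapping groups. Exact ties between 2 arrays made up 6.43% to 10.5% of clusters. In all, 6 of the 26 genes had 1 value shared by 3 or more arrays, against 32.8% of all genes.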
